A study of Mus musculus with 4 samples.

Results

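The galectin family genes followed here are Lgals1, Lgals3, Lgals3bp, Lgals8 and Lgals9, 5 of the 19491 genes that the files list. Their rows, found by gene symbol, were read in each library and in each immune class that marker genes set apart. CD45+ cells, which are leukocytes and microglia, were sorted from the brain or the dura mater of C57BL/6J mice that were 8 weeks old. The mice had received photothrombotic injury (PTI), in which light shone on the skull clots vessels that carry an injected dye, or were controls, and all cells were taken on day 3. The control libraries, labelled CT, are called S3 after the paper's sham-operated group of day 3, and the injured ones are called D3. Each of the 4 conditions, S3 and D3 brain and S3 and D3 dura mater, has 1 library, and how many mice went into each is not given in the sources used here.

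Galectins are sugar-binding proteins that recognise galactose-containing glycans on the cell surface and in damaged vesicles, and they leave the cell without a signal peptide. Galectin-1 (Lgals1) crosslinks glycans on T cells and dampens their activation, while galectin-3 (Lgals3) is abundant in monocytes and macrophages and is a familiar marker of activated microglia. Galectin-8 (Lgals8) and galectin-9 (Lgals9) carry a pair of sugar-binding domains: galectin-8 marks broken endosomes for autophagy, and galectin-9 is a ligand of the T cell receptor TIM-3. Lgals3bp is not a galectin but a secreted glycoprotein that binds galectin-3, and both Lgals3bp and Lgals9 are known to respond to interferons.

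In the GENCODE vM21 annotation of GRCm38, Lgals1 lies on chr15 from 78926725 to 78930465 on the plus strand and Lgals3 on chr14 from 47367751 to 47386160 on the plus strand. Lgals8 lies on chr13 from 12439415 to 12464944 on the minus strand. Lgals3bp (118392751 to 118402092) and Lgals9 (78962974 to 78984946) both lie on chr11 on the minus strand. Pseudogenes of Lgals1 lie on chr15 and chr17, and whether they affected the Lgals1 counts was not tested.

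RefSeq gives a window upstream of the start for 4 of the members, all but Lgals1. Each window was searched for letters that interferon-regulated promoters often hold, on both strands. The longer motif, GAAA followed by any 2 bases and GAAA again, is a core of the interferon-stimulated response element (ISRE) and was found in 2.98% of 32851 windows of 250 bases. The shorter one, AANNGAAA, is a site of the IRF factors, overlaps the longer one and was found in 21.3%. The windows of Lgals9 and Lgals3bp, the members known to respond to interferons, are shown because they held such letters. Capitals mark the matches, on the strand of the gene and on GRCm38.p6, at chr11:78984925-78985174 (minus strand) for Lgals9 and at chr11:118401960-118401989 (minus strand) for the bases next to the start of Lgals3bp:
Lgals9: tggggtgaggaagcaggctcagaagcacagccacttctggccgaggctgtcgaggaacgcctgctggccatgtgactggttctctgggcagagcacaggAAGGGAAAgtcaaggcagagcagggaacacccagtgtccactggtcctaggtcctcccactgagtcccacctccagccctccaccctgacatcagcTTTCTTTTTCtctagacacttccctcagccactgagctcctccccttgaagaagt
Lgals3bp: tcatgtgttttctgaaAATCGAAActaggt
The Lgals9 window held the ISRE letters on the opposite strand, 55 to 46 bases before the start, and the IRF letters also at 151 to 144 bases. In Lgals3bp only the IRF letters were found, 14 to 7 bases before the start. The windows of Lgals3 and Lgals8 held neither. RefSeq starts are used here. The windows of Lgals3 (chr14:47373610-47373859, plus strand) and Lgals8 (chr13:12461739-12461988, minus strand) lie inside the wider GENCODE spans of these genes. The printed stretch of Lgals3bp, with its match, also lies inside the GENCODE span of its gene. These windows and this stretch are therefore not upstream of the outermost annotated start. The Lgals9 window overlaps its GENCODE span at the bases next to the start. Of 12 interferon-stimulated genes followed beside the members, 9 had a window, and 4 of those (Ifit1, Ifit3, Isg15 and Rsad2) held the ISRE letters. A match describes letters in a window and does not show that a factor binds there.

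The files held 18969 cell barcodes, of which 14586 passed the filters (between 2668 and 4601 per library, with median totals of 8436 to 14641 unique molecules, or UMIs). The libraries shared between 3 and 11 barcodes per pair. Marker gates placed 12775 cells in immune classes, 888 cells passed gates of more than 1 lineage and were left out, and 996 of the placed cells lay near their threshold. Because the names were rebuilt from markers, classes are written as microglia-like and so on. All 11 microglia markers were found in most cells of the microglia-like class in either brain library, while only 4 and 6 such cells were found in the dura mater libraries. Levels are UMIs of a gene per 1000000 UMIs of the class (CPM), with 95% intervals that cover counting error only. Each condition is a single library, so the variation among animals is unknown and differences are described without a test. The intervals cannot stand in for it.

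Over all kept cells, the levels of all 5 genes were higher in D3 than in S3 brain. The share of all genes that were higher in this way was not counted, and the make-up of the libraries differed. Arg1 Gpnmb macrophage-like cells, described below, were 0.48% of the kept cells in S3 and 31.2% in D3 brain. Lgals3 was at 624.1 CPM in S3 brain, 2099 in D3 brain, 753.6 in S3 dura mater and 756.8 in D3 dura mater. Lgals1 was at 493.6, 994.7, 501.3 and 595.0 CPM in the same order, and Lgals3bp at 63.0, 192.6, 65.5 and 92.4. D3 brain was the highest library for each of these genes. The dura mater libraries lay nearer to S3 brain than to D3 brain, though D3 dura mater was above S3 brain for each gene. Lgals9 was at 67.1, 115.1, 88.1 and 72.4 CPM, which made it the only member lower in D3 than in S3 dura mater, and Lgals8 ranged from 36.6 to 47.6.

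The classes that held these UMIs differed among the libraries. In D3 brain, macrophages that express Arg1 and Gpnmb, a class with 1437 cells there against 18 in S3 brain, held 44.1% of all UMIs but 72.1% of the Lgals1 UMIs, 70.1% of Lgals3 and 60.8% of Lgals3bp. They held 54.2% of Lgals9 and 52.1% of Lgals8, nearer to their share of all UMIs. In S3 brain the largest holders of Lgals3 were Ly6C hi monocyte-like cells with 40.0% and type 2 conventional dendritic cell (cDC2)-like cells with 12.7%. Lgals1 in S3 brain was spread over T-like cells (18.9%), Ly6C hi monocyte-like cells (15.5%) and NK/ILC1-like cells (14.9%). In S3 dura mater, B cell precursor-like cells held 25% of the Lgals9 UMIs and 6.51% of all UMIs.

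**Figure D1:**
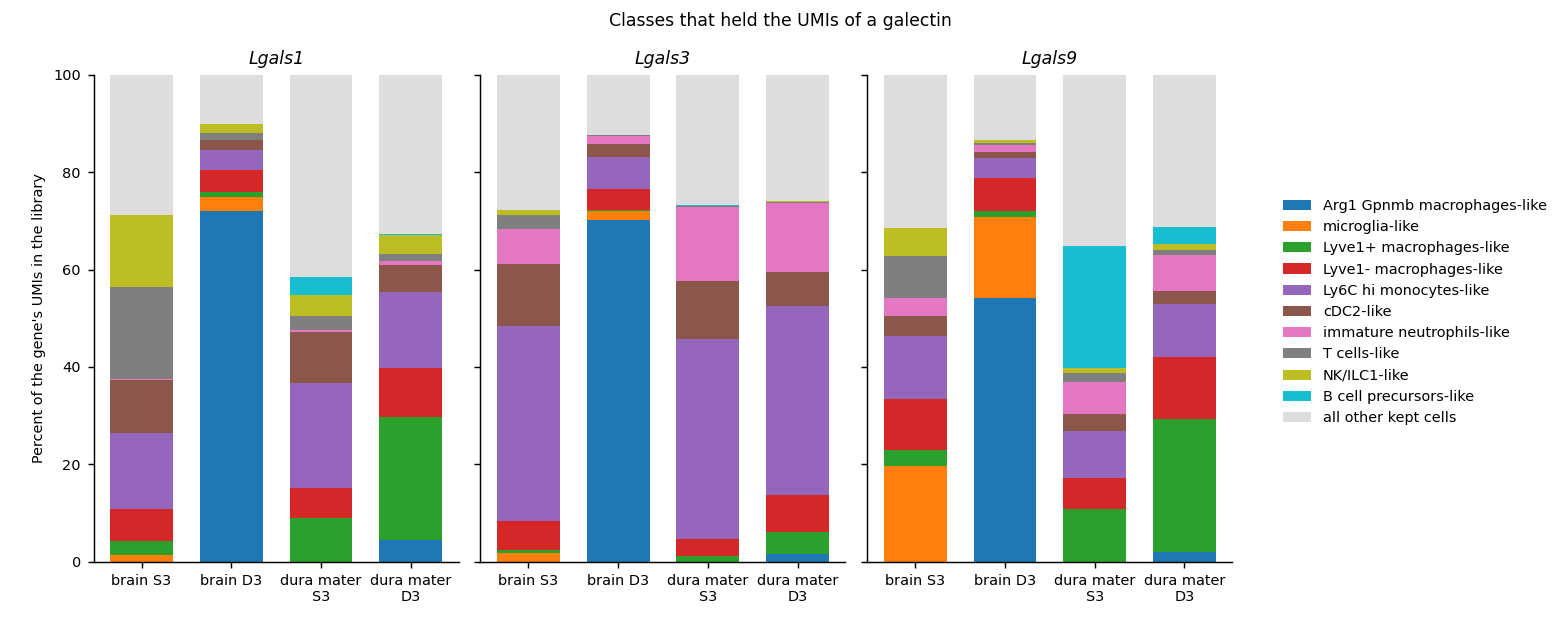
Share of the UMIs of Lgals1, Lgals3 and Lgals9 (vertical axis, percent of the gene's UMIs in a library) held by each immune class in the 4 libraries; grey stands for all other kept cells. Arg1 Gpnmb macrophage-like cells held 72.1% of Lgals1 and 70.1% of Lgals3 in D3 brain, and B cell precursor-like cells 25% of Lgals9 in S3 dura mater.

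Each member had its own order of classes. Lgals1 was high in plasmacytoid dendritic, NK/ILC1-like and γδ T-like cells. Plasmacytoid dendritic cell (pDC)-like cells had 2110 CPM (1988 to 2237) in S3 and 2400 (2219 to 2591) in D3 dura mater, the only libraries with at least 20 such cells. NK/ILC1-like cells followed with 1308 CPM in S3 brain, 1867 in D3 brain, 1277 in S3 dura mater and 1515 in D3 dura mater. Their interval overlapped that of γδ T-like cells in S3 brain (1225 CPM) and in D3 brain (1764), and that of Arg1 Gpnmb macrophage-like cells in D3 dura mater (1509), so these pairs were not told apart. ILC2-like cells were low, at 122.6 CPM in S3 brain, 134.7 in S3 dura mater and 178.9 in D3 dura mater. At the other end, immature neutrophil-like cells had between 16.2 and 50.6 CPM and mature ones between 27.4 and 77.2. B-like cells had 62.0 CPM in S3 brain, 35.6 in D3 brain, 110.2 in S3 dura mater and 81.9 in D3 dura mater.

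Lgals3 had another order, with myeloid cells at the top. Ly6C hi monocyte-like cells, the classical inflammatory monocytes, had 2634 CPM in S3 brain, 2686 in D3 brain, 2746 in S3 dura mater and 2516 in D3 dura mater, and a UMI was found in 100% of them in every library. The class stood first in all libraries but D3 brain, where Arg1 Gpnmb macrophage-like cells had 3340 CPM (3321 to 3360). cDC2-like cells had between 1087 and 1320 CPM and immature neutrophil-like cells between 889.8 and 1067. γδ T-like cells, among the highest for Lgals1, had 30.5 CPM of Lgals3 in S3 brain, 216.7 in D3 brain (39 cells), 12.1 in S3 dura mater and 23.2 in D3 dura mater. The summed level of the 8 Arg1 Gpnmb macrophage markers in these cells was 82.2 CPM in S3 and 322.8 in D3 brain, and its part in the D3 brain value was not tested. Per cell, 90.6% of γδ T-like cells of S3 brain carried Lgals1 without Lgals3, while 91.1% of immature neutrophil-like cells there carried Lgals3 without Lgals1. Across the 52 groups of a class and a library with at least 50 cells, the levels of Lgals1 and Lgals3 had a Pearson r of -0.04 (Spearman -0.03), a description over groups that share libraries.

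Lgals3bp was a macrophage gene with a lymphoid exception. Lyve1+ macrophage-like cells had 122.8 CPM in S3 brain, 133.4 in D3 brain, 232.6 in S3 dura mater and 224.4 in D3 dura mater, and γδ T-like cells had 139.2, 150.3, 176.5 and 114.2 in that order. In contrast it was nearly absent from mast-like cells, at 1.21 CPM in S3 and 2.03 in D3 dura mater, and from B-like cells, where 13 UMIs were found in 492 cells of S3 brain and 0 in 67 cells of D3 brain, which allows up to 13.1 CPM. Neutrophil-like cells had between 4.48 and 20.9 CPM.

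Lgals8 was the most evenly spread member, from 11.6 CPM in cDC1-like cells of D3 dura mater to 151.1 in mast-like cells of the same library. Mast-like cells had 133.9 CPM (110.2 to 161.3) in S3 and 151.1 (127.9 to 177.5) in D3 dura mater, above every other class shown. Lyve1+ macrophage-like cells came next, at 72.4 to 76.0 CPM in the 4 libraries.

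Lgals9 stood out in developing B cells. B cell precursor-like cells had 338.3 CPM (317.4 to 360.3) in 299 cells of S3 dura mater and 323.2 (264.1 to 391.7) in 33 cells of D3 dura mater. B-like cells of the same libraries had 58.9 and 59.1 CPM. Mast-like cells followed with 158.0 and 156.2 CPM. In the brain, where B cell precursors were too few to give, the highest class in S3 was microglia-like cells at 106.2 CPM (97.4 to 115.7). Ly6C hi monocyte-like cells followed at 90.6 (81.3 to 100.7). The slight overlap of these intervals does not settle whether the levels differ.

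**Figure D2:**
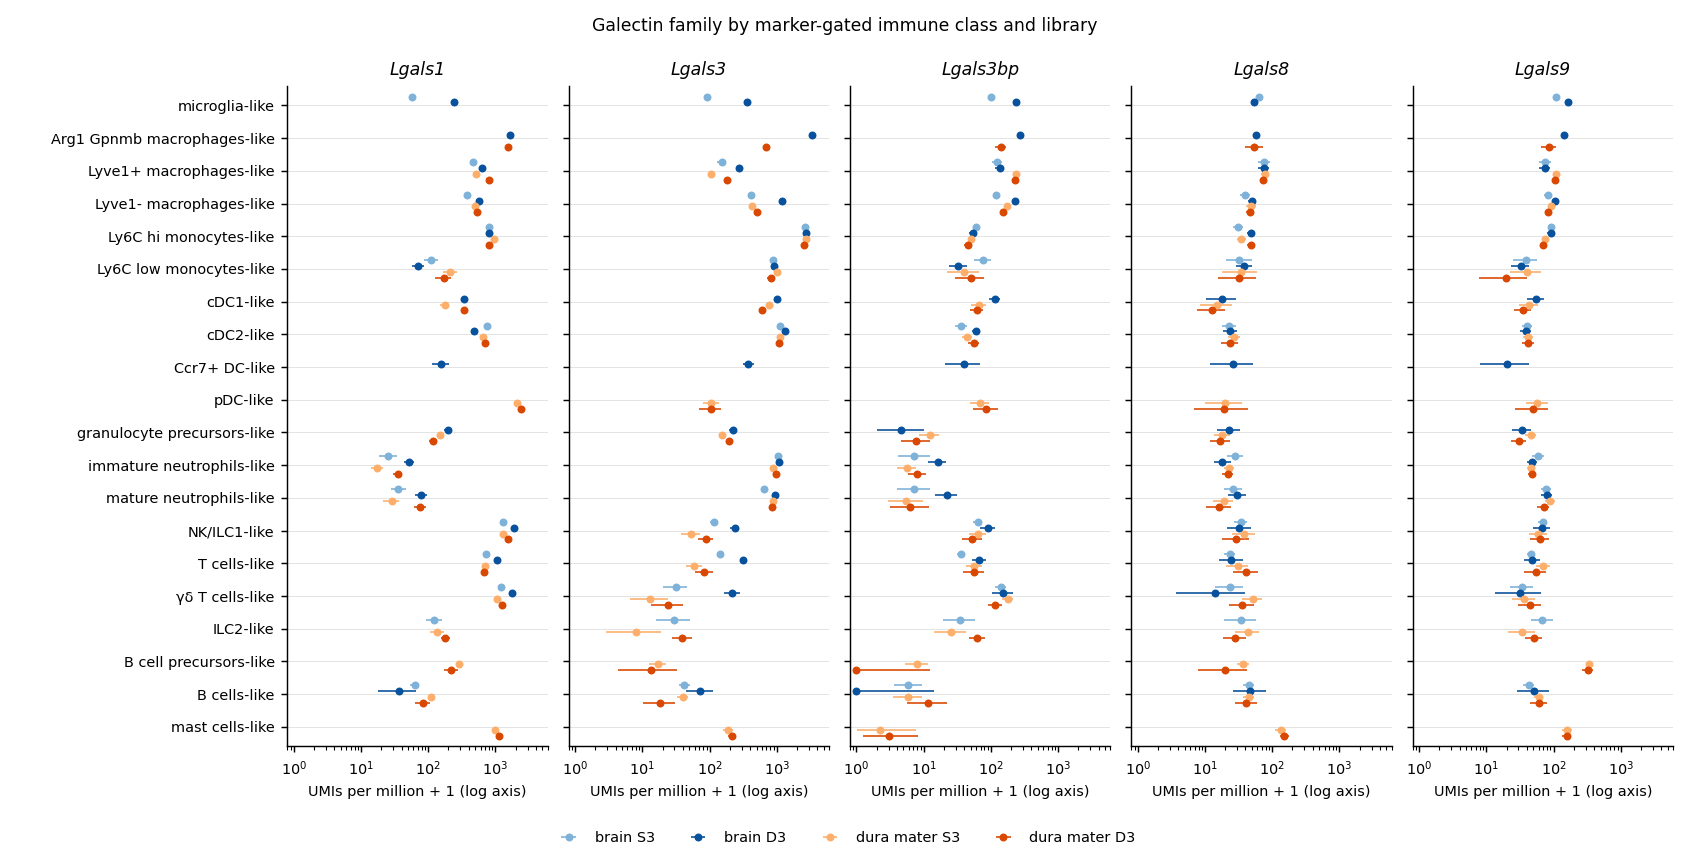
Level of each member (horizontal log axis, CPM plus 1) in every immune class with at least 20 cells, by library; points are pooled UMIs and bars 95% intervals for counting error. Lgals1 peaks in pDC-like cells (2110 and 2400 CPM), Lgals3 in Ly6C hi monocyte-like cells and in Arg1 Gpnmb macrophage-like cells of D3 brain (3340 CPM), and Lgals9 in B cell precursor-like cells (338.3 and 323.2 CPM).

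The first question the design asks is what differs after PTI within a class. In microglia-like cells of the brain, Lgals1, Lgals3 and Lgals3bp were higher after injury, Lgals9 moderately so, and Lgals8 slightly lower. Lgals1 was at 56.8 CPM (50.4 to 63.8) in S3 and 239.7 (229.7 to 250.02) in D3, a log2 ratio of 2.08 (1.90 to 2.26). Lgals3 was at 89.9 CPM (81.8 to 98.7) and 356.7 (344.5 to 369.3), a log2 ratio of 1.99. Lgals3bp was at 101.0 and 236.0 CPM, a log2 ratio of 1.22 (1.08 to 1.37). Lgals9 was at 106.2 and 164.0 CPM (0.63, 0.48 to 0.77), and Lgals8 at 62.8 and 52.7 (-0.25, -0.46 to -0.04). So 3 of 5 members were at least 2-fold higher, where 3.24% of 8648 genes were, and none was 2-fold lower, where 1.92% were. The interval lay above 0 for 4 members and below 0 for Lgals8, against 19.1% and 32.3% of the genes. The 2-fold call of Lgals3bp was lost at 0.97 when cells were thinned or weighted equally, and that of Lgals3 at 0.85 in cells with no UMI of Arg1 or Gpnmb. The interval of Lgals8 reached 0 when centred on the median gene (-0.12, -0.33 to 0.09) and in cells with no UMI of Arg1 or Gpnmb (-0.21, -0.44 to 0.03). The median log2 ratio of the members was 1.22, beside -0.13 for all those genes.

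Lgals1 and Lgals3 were found in a minority of microglia-like cells. In S3, 15.3% of the cells had an Lgals1 UMI and 15.6% an Lgals3 UMI, and in D3 36.4% and 45.2% did. At 2000 UMIs per cell the shares were 4.53% and 15.1% for Lgals1 and 5.50% and 18.8% for Lgals3. For comparison, B-like cells, which should lack Lgals3, had it in 11.99% of cells in S3 and 28.4% in D3 brain (5.64% and 15.7% after thinning). The thinned share of microglia-like cells was like that of B-like cells in S3 and little above it in D3. By level, B-like cells had 41.0 CPM in S3 and 71.2 (20 UMIs) in D3 brain, against 89.9 and 356.7 in microglia-like cells. How much of the Lgals3 in microglia-like cells came from RNA of other cells was not tested. Median totals were 9691 and 9793 UMIs in microglia-like cells and 4728 and 3474 in B-like cells. The 10% of cells with the most Lgals3 UMIs held 94.9% of them in S3 and 80.9% in D3, with up to 255 in a cell. Cells with both genes were 7.08% of the class in S3 and 27.6% in D3, and cells with neither 76.2% and 45.9%. Lgals9, in contrast, was found in 62.5% and 68.6% of the cells.

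Markers of the Arg1 Gpnmb macrophages were also higher in the D3 microglia-like cells, and their part in the result was measured only in part. All 8 markers of that list were detected in both libraries, and their summed level was 1161 CPM in S3 and 2134 in D3. Arg1 itself was at 1.21 and 118.9 CPM and Gpnmb at 16.1 and 53.8, against 1937 and 1466 in the Arg1 Gpnmb macrophage-like cells. Fabp5 was at 13.85 and 217.0 CPM and Spp1 at 47.8 and 752.9. The sum also holds Hmox1, Ms4a7, Adgre1 and Thbs1, which made up most of it in S3. Among microglia-like cells with no UMI of Arg1 or Gpnmb, 414 in S3 and 418 in D3, the log2 ratio was 1.12 for Lgals1 and 0.85 for Lgals3. For Lgals3bp it was 1.16 and for Lgals9 0.62, close to the values for the whole class.

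The D3 microglia-like cells with an Lgals3 UMI differed from the others in more than this gene. After thinning to 2000 UMIs there were 111 cells with and 468 without, and those with one had a median of 26368 UMIs before thinning against 8600. Their median score for the Arg1 Gpnmb macrophage markers was 0.176 against 0.118, and its part in the differences was not tested. Genes linked to damage-associated microglia were higher in them: the log2 ratio was 3.34 for Fabp5, a fatty acid carrier, 3.08 for Gpnmb, a lysosomal glycoprotein, 2.39 for Spp1 (osteopontin) and 1.19 for Apoe. Homeostatic genes were lower, with -0.96 for P2ry12, the purinergic receptor of resting microglia, -1.02 for Siglech and -0.74 for Tmem119. Trem2, a receptor for lipids, was at -0.26. Among the other members, Lgals1 had a log2 ratio of 2.0 and Lgals3bp 1.06, while the intervals of Lgals8 and Lgals9 included 0.

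Other genes followed in the same class moved in different directions. Of 12 interferon-stimulated genes, 11 had at least 100 UMIs, and 10 of those were at least 2-fold higher in D3 with a median log2 ratio of 2.84; Rsad2, an antiviral enzyme, went from 1.61 to 78.7 CPM and Isg15, a ubiquitin-like modifier, from 29.9 to 161.5. Of 11 damage-associated genes, 4 were at least 2-fold higher and none 2-fold lower (median 0.80), with Spp1 at 47.8 and 752.9 CPM. All 6 homeostatic genes had intervals below 0 (median -0.77), with P2ry12 at 1826 and 916.7 CPM. Of all genes in this comparison, 3.24% were at least 2-fold higher and 1.92% lower, and 32.3% had intervals below 0.

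The known partners of galectins were followed in the microglia-like cells too, where 19.1% of all genes lay above 0 and 32.3% below. Of 17 counter-receptors, the glycoproteins that galectins are known to bind, 14 had enough UMIs, 2 had intervals above 0 and 7 below, with a median log2 ratio of -0.07. Cd44, a receptor for hyaluronan, was at 31.1 CPM in S3 and 57.1 in D3 (0.87). Lag3, an inhibitory receptor, was at 303.0 and 161.7 (-0.91), and Mertk, which takes up dying cells, at 338.7 and 228.6 (-0.57). Of 9 enzymes that make or mask galectin ligands, 8 had enough UMIs, 1 was above and 4 below (median -0.33), with B4galt1, which adds galactose, at 135.1 and 87.2 CPM. Of 5 genes of the response to damaged membranes, where Lgals3 and Lgals8 act, 4 had enough UMIs and 2 were above (median 0.16), with Sqstm1, an autophagy receptor, at 125.3 and 154.2 CPM. With lists this short, these counts are not far from the shares of all genes.

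**Figure D3:**
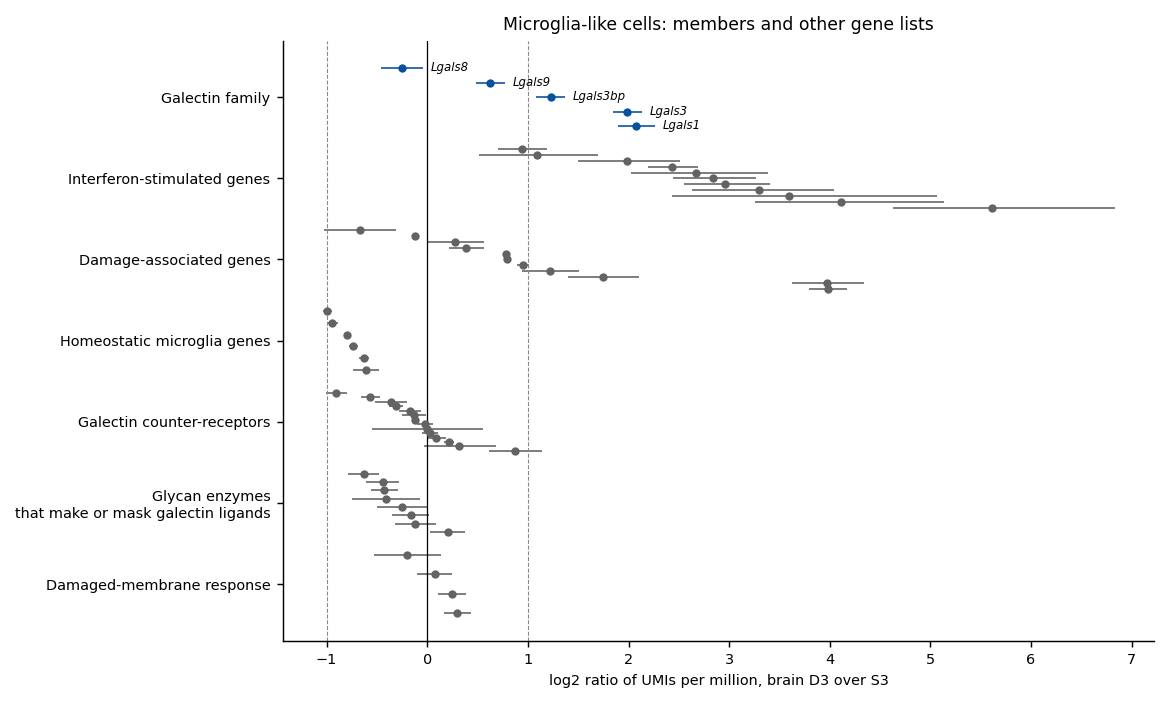
Log2 ratio of CPM in D3 over S3 brain (horizontal axis) for the members, named, and for the genes of 6 other lists with at least 100 UMIs in microglia-like cells; bars are 95% intervals for counting error and dashed lines mark 2-fold. Lgals1 (2.08), Lgals3 (1.99) and Lgals3bp (1.22) lie within the range of the interferon-stimulated genes, while counter-receptors centre on -0.07 and homeostatic genes on -0.77.

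The macrophages that appeared in the injured brain had the highest Lgals3 of any class with at least 20 cells in a library. In 1437 Arg1 Gpnmb macrophage-like cells of D3 brain, Lgals3 was at 3340 CPM, Lgals1 at 1628 (1615 to 1642), Lgals3bp at 265.6 (260.1 to 271.1), Lgals9 at 141.7 (137.7 to 145.7) and Lgals8 at 56.2 (53.7 to 58.8). Lgals1 was found in 99.1% of the cells and both Lgals1 and Lgals3 in 96.6%. The 36 cells of this class in D3 dura mater, 27 of which lay near the threshold, had a similar Lgals1 level of 1509 CPM but less Lgals3 (696.2) and Lgals3bp (138.7).

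Against the border macrophages of S3 brain, the Lyve1+ and Lyve1- classes together (347 cells), all 5 members were higher in these cells. The S3 border macrophages had 352.4 CPM of Lgals3, 399.4 of Lgals1, 119.1 of Lgals3bp, 79.3 of Lgals9 and 47.1 of Lgals8. The log2 ratio was 3.24 (3.17 to 3.32) for Lgals3, 2.03 (1.96 to 2.10) for Lgals1, 1.16 (1.03 to 1.28) for Lgals3bp, 0.84 (0.68 to 0.99) for Lgals9 and 0.25 (0.05 to 0.46) for Lgals8. So 3 of 5 were at least 2-fold higher, against 6.94% of 9777 genes, and none 2-fold lower, against 12.5%. All 5 intervals lay above 0, where 27.0% of genes did and 36.8% lay below, and the median of all genes was -0.11.

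Which member set these cells apart depended on the class they were compared with in the same library. Against microglia-like cells of D3 brain, the log2 ratio was 3.23 for Lgals3 and 2.76 for Lgals1, but 0.17 for Lgals3bp and -0.21 for Lgals9. Against Ly6C hi monocyte-like cells of D3 brain, it was 0.31 for Lgals3, 1.03 for Lgals1 and 2.31 for Lgals3bp, which was at 53.7 CPM in those monocytes. Lgals3 was thus close to the monocyte level and Lgals3bp close to the microglial one. Against Lyve1+ macrophage-like cells of D3 brain, Lgals3 was higher by a log2 ratio of 3.63 and Lgals8 lower at -0.39.

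Some counter-receptors were also higher in these cells than in S3 border macrophages. Of 15 with enough UMIs, 8 intervals lay above 0 and 5 below (median 0.23), where 27.0% of all genes lay above and 36.8% below. Lamp1, a lysosomal glycoprotein, was at 833.0 CPM in the border macrophages and 1940 in the Arg1 Gpnmb macrophage-like cells (1.22), Trem2 at 614.5 and 1428 (1.22), and Cd44 at 90.6 and 200.9 (1.15). Spn, a sialomucin of leukocytes, was at 20.1 and 6.17 CPM (-1.71). Mgat5, which builds the branched glycans that galectin-3 prefers, was at 26.8 and 49.3 CPM (0.88), among 8 glycan enzymes with 3 intervals above and 3 below 0, close to the shares of all genes.

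In Lyve1+ macrophage-like cells, a type that lines vessels and lives in the dura mater, Lgals1 and Lgals3 were higher after injury in both tissues and the other members were not told apart. Lgals1 was at 469.6 CPM (430.9 to 510.8) in S3 brain, 624.1 (582.7 to 667.6) in D3 brain, 514.3 (491.8 to 537.5) in S3 dura mater and 795.7 (776.1 to 815.5) in D3 dura mater. Lgals3 was at 149.6 (128.2 to 173.7), 270.4 (243.4 to 299.5), 102.8 (92.9 to 113.5) and 179.4 (170.2 to 188.9) CPM. The log2 ratio of D3 over S3 was 0.41 (0.25 to 0.57) for Lgals1 and 0.85 (0.59 to 1.12) for Lgals3 in the brain, and 0.63 (0.56 to 0.70) and 0.80 (0.64 to 0.97) in the dura mater. No member reached 2-fold in either tissue, where 0.988% of genes in the brain and 0.725% in the dura mater did. For Lgals3 this depended on the processing: it passed 2-fold in the brain at 1.27 with thinned or equally weighted cells, at 2.85 with clusters and at 3.39 with gate and cluster together, and in the dura mater at 1.07 with no filter on cells. The intervals of Lgals3bp, Lgals8 and Lgals9 included 0 in both.

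The Lgals3 values of this class rested on few cells. A UMI was found in 12.7% of the cells in S3 brain, 43.4% in D3 brain, 26.7% in S3 dura mater and 43.2% in D3 dura mater (6.51%, 18.4%, 8.60% and 16.1% at 2000 UMIs per cell), and the 10% of cells with most UMIs held 98.8%, 79.0%, 86.8% and 70.3% of them. B-like cells had shares of 11.99%, 28.4%, 10.7% and 9.68%, at median totals of 3474 to 5421 UMIs against 8656 to 15704 in this class. Within the cells of 1 expression cluster (cluster 3), Lgals3 was at 13.1 CPM in S3 and 137.6 in D3 brain, and at 97.4 and 119.3 CPM in S3 and D3 dura mater. In the same cells Lgals1 was at 433.0 and 520.7 CPM in the brain and 506.2 and 752.8 in the dura mater. When clusters took the place of gates, the log2 ratio of Lgals3 was 2.85 in the brain and 0.45 in the dura mater.

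Interferon-stimulated genes did not follow Lgals1 and Lgals3 in the dura mater. In Lyve1+ macrophage-like cells there, none of 11 with enough UMIs had an interval above 0 and 6 lay below (median -0.25), while 8 of 13 counter-receptors lay above 0 (median 0.16). Of 8279 genes, 9.72% lay above 0 and 16.6% below.

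In Lyve1- macrophage-like cells, which carry MHC class II, all 5 members were higher in D3 than S3 brain. Lgals3 was at 419.2 CPM in S3 and 1184 in D3 brain (log2 ratio 1.5, 1.42 to 1.58), Lgals1 at 376.2 and 577.0 (0.62) and Lgals3bp at 117.9 and 231.1 (0.97). Lgals9 had a log2 ratio of 0.38 and Lgals8 of 0.36. Of 6997 genes in this brain comparison, 20.5% had intervals above 0 and 17.9% below. At least 2-fold higher, as Lgals3 was, were 2.22% of them. In the dura mater Lgals3 was at 429.3 CPM in S3 and 508.8 in D3 (0.25), Lgals1 at 502.8 and 530.8 (0.08, interval including 0), and Lgals3bp at 171.3 and 150.4 (-0.19). The brain cells of this class were a mixture after injury: 94 of the 363 cells in D3 brain lay in the expression cluster of the Arg1 Gpnmb macrophages (cluster 0), and these had 2037 CPM of Lgals3 and 342.8 of Lgals3bp. The 196 cells in the cluster that held most of the S3 cells (cluster 5) had 559.5 CPM of Lgals3, against 384.9 in the 198 S3 cells of that cluster, and 119.5 of Lgals3bp against 122.4. Within cluster 5, Lgals3bp thus did not differ beyond counting error. Arg1 was at 1.14 CPM in S3 and 42.1 in D3 brain in the whole class, with all 8 markers of its list detected in both libraries.

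**Figure D4:**
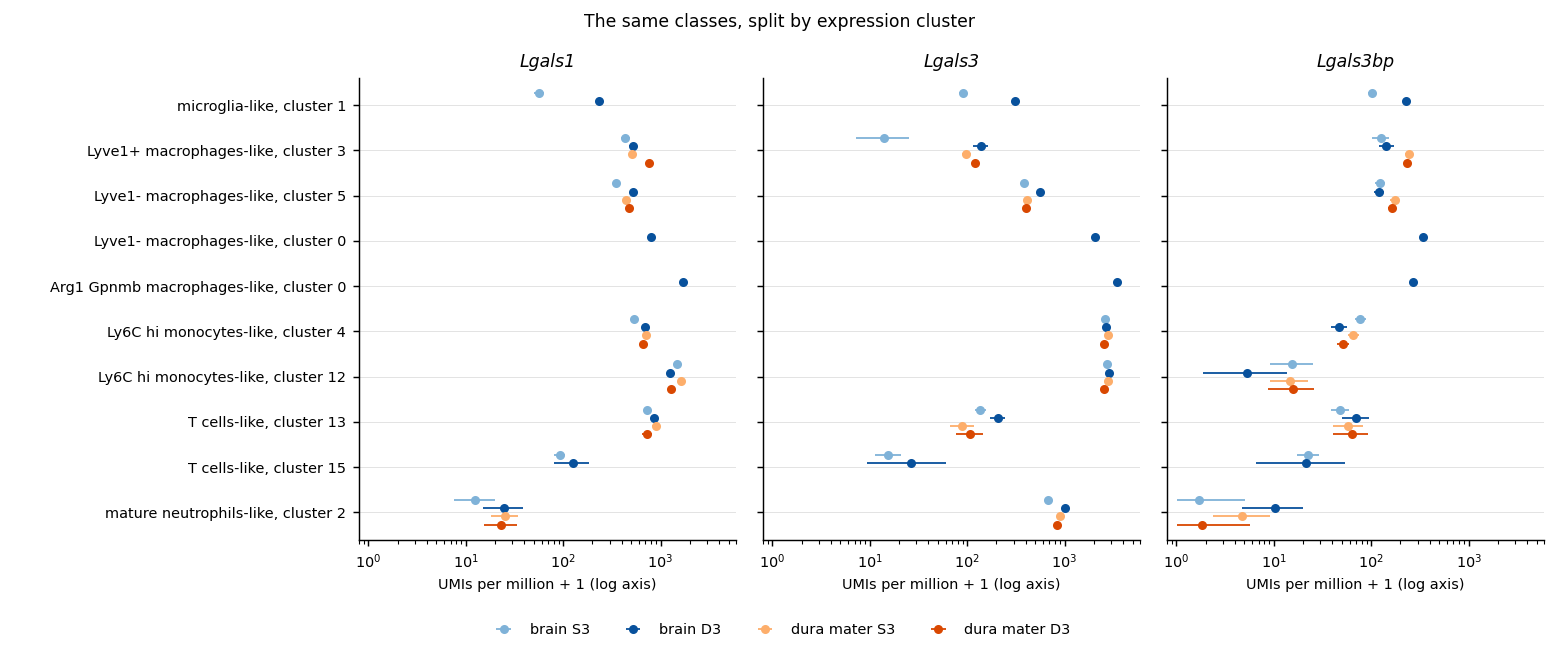
Level (horizontal log axis, CPM plus 1) of Lgals1, Lgals3 and Lgals3bp by library in cells of a class that also lay in the expression cluster named beside it; bars are 95% intervals for counting error. Lyve1- macrophage-like cells of cluster 5 had 122.4 and 119.5 CPM of Lgals3bp in S3 and D3 brain, while those of cluster 0 in D3 brain had 342.8.

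Monocytes and dendritic cells differed in single members. In Ly6C hi monocyte-like cells the log2 ratio of D3 over S3 was 0.03 for Lgals3 in the brain and -0.13 in the dura mater, and for Lgals1 it was -0.01 and -0.28. Lgals8 was the member that was higher in both: 29.95 CPM in S3 and 47.7 in D3 brain (0.67, 0.33 to 1.02), and 33.7 and 46.5 in the dura mater (0.46, 0.17 to 0.76). In D3 brain 46 of the 257 monocytes lay in cluster 0, that of the Arg1 Gpnmb macrophages, and had 69.9 CPM of Lgals8. In cluster 4 Lgals8 was at 35.4 CPM (28.7 to 43.2) in S3 and 47.7 (39.4 to 57.2) in D3 brain. These level intervals overlap slightly, which does not settle whether the levels differ, and no ratio is given for the cluster. The summed level of the 8 Arg1 Gpnmb macrophage markers in these monocytes was 1364 CPM in S3 and 2418 in D3 brain. Arg1 was at 0.263 and 55.4, Gpnmb at 2.10 and 9.53, Fabp5 at 116.1 and 99.1 and Spp1 at 13.9 and 77.3. Most of the sum, and of its difference, lay in Hmox1, Ms4a7, Adgre1 and Thbs1. The part of these markers in the Lgals8 difference was not tested. Ly6C low monocyte-like cells, the patrolling type, had less Lgals1 in D3 brain, with 110.4 CPM in S3 and 68.8 in D3 (-0.68, -1.15 to -0.21). Their Lgals3bp was at 74.1 CPM (47 UMIs) in S3 and 31.4 (42 UMIs) in D3 brain, under the 100 UMIs set for the counts. Among the Ly6C hi monocyte-like cells, Lgals1 differed by cluster, from 537.4 to 709.1 CPM in cluster 4 and from 1259 to 1618 in cluster 12 of the 4 libraries. In cDC2-like cells of the brain, Lgals1 was lower after injury, at 753.4 CPM in S3 and 486.0 in D3 (-0.63, -0.73 to -0.54), and Lgals3bp was higher, at 35.3 and 59.5 (0.75). In the dura mater the same cells had 659.6 and 696.0 CPM of Lgals1, and the interval of the ratio included 0.

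Neutrophil-like cells had little Lgals1, but its level was higher after injury in both tissues. Mature cells had 35.0 CPM (57 UMIs) in S3 brain, 77.2 (100 UMIs) in D3 brain, 27.4 (49 UMIs) in S3 dura mater and 74.6 (98 UMIs) in D3 dura mater. The log2 ratio was 1.14 in the brain, where 3.85% of genes were at least 2-fold higher, and 1.44 in the dura mater, where 1.56% were. Immature cells had log2 ratios of 1.05 in the brain (43 UMIs in S3 and 127 in D3) and 1.07 in the dura mater (92 and 160 UMIs). Among all genes, 4.97% in the brain and 0.982% in the dura mater were at least 2-fold higher in these cells. Cluster 7 held 69.6% of the immature cells in S3 and 55.3% in D3 brain, and 75.4% and 68.9% in the dura mater. The part of this make-up in the ratios was not tested. The make-up of the mature cells differed in the brain: cluster 2 held 94.7% of them in S3 but 58.5% in D3, where 35.8% lay in cluster 23. The Arg1 Gpnmb macrophage markers summed to 2277 CPM in S3 (7 of 8 detected) and 1120 in D3 brain (8 of 8). Most of both sums came from Hmox1, Ms4a7, Adgre1 and Thbs1. Arg1 (0 and 27.8), Gpnmb (0.613 and 21.6), Fabp5 (96.3 and 206.2) and Spp1 (28.8 and 197.0) were instead higher in D3. The part of these markers in the result was not tested. Within cluster 2, Lgals1 was at 11.6 and 23.8 CPM in S3 and D3 brain and at 24.4 and 22.1 in S3 and D3 dura mater, so the difference in the dura mater was not seen there. In D3 dura mater cluster 2 held 164 of the 174 mature cells but 26 of their 98 Lgals1 UMIs, so the ratio of 1.44 rested on the few cells outside it. Lgals3 in mature cells was at 639.8 and 930.8 CPM in the brain (0.54) and at 876.1 and 847.1 in the dura mater (-0.05, interval including 0).

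T-like and NK/ILC1-like cells had higher Lgals1 and Lgals3 in D3 brain. In T-like cells Lgals1 was at 722.1 CPM in S3 and 1061 in D3 brain (0.56, 0.46 to 0.65), and at 702.1 and 676.7 in the dura mater, where the interval of the ratio included 0. Lgals3 was at 141.5 and 313.8 CPM in the brain (1.15, 0.95 to 1.34), where 1.82% of genes were at least 2-fold higher, and at 58.0 and 82.1 in the dura mater. In NK/ILC1-like cells the brain ratio was 0.51 for Lgals1 and 1.04 for Lgals3. Markers of the Arg1 Gpnmb macrophages moved with these values. Their summed level in T-like cells was 61.0 CPM in S3 and 310.8 in D3 brain, and in NK/ILC1-like cells 79.0 and 249.3, with all 8 markers detected, and their part in the Lgals3 difference was not tested. The make-up of the T-like cells differed too: cluster 13 held 39.1% of them in S3 and 65.7% in D3 brain. Within cluster 13, Lgals1 was at 729.1 and 865.5 CPM and Lgals3 at 135.7 and 205.7, while within cluster 15, which held 54.1% in S3 and 24.8% in D3, Lgals1 was at 91.4 and 124.0.

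Members were also counted over all classes with at least 50 cells in both libraries and at least 100 UMIs. In the brain the interval lay above 0 in 7 of 11 classes for Lgals1 and below 0 in 2, and above 0 in 8 of 11 for Lgals3 and below in none. Over all genes and classes, 16.2% of 54306 pairs lay above 0 and 18.1% below. Such intervals narrow with the number of UMIs, so abundant genes lie outside 0 more often. Lgals3bp lay above 0 in 5 of 7 brain classes, Lgals9 in 2 of 10 and Lgals8 in 2 of 7. In the dura mater Lgals1 lay above 0 in 7 of 13 classes and below in 3, and Lgals3 above in 4 of 10 and below in 2, against 9.06% and 16.0% of all pairs. Lgals3bp was below 0 in 2 of 5 dura mater classes and above in none.

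**Figure D5:**
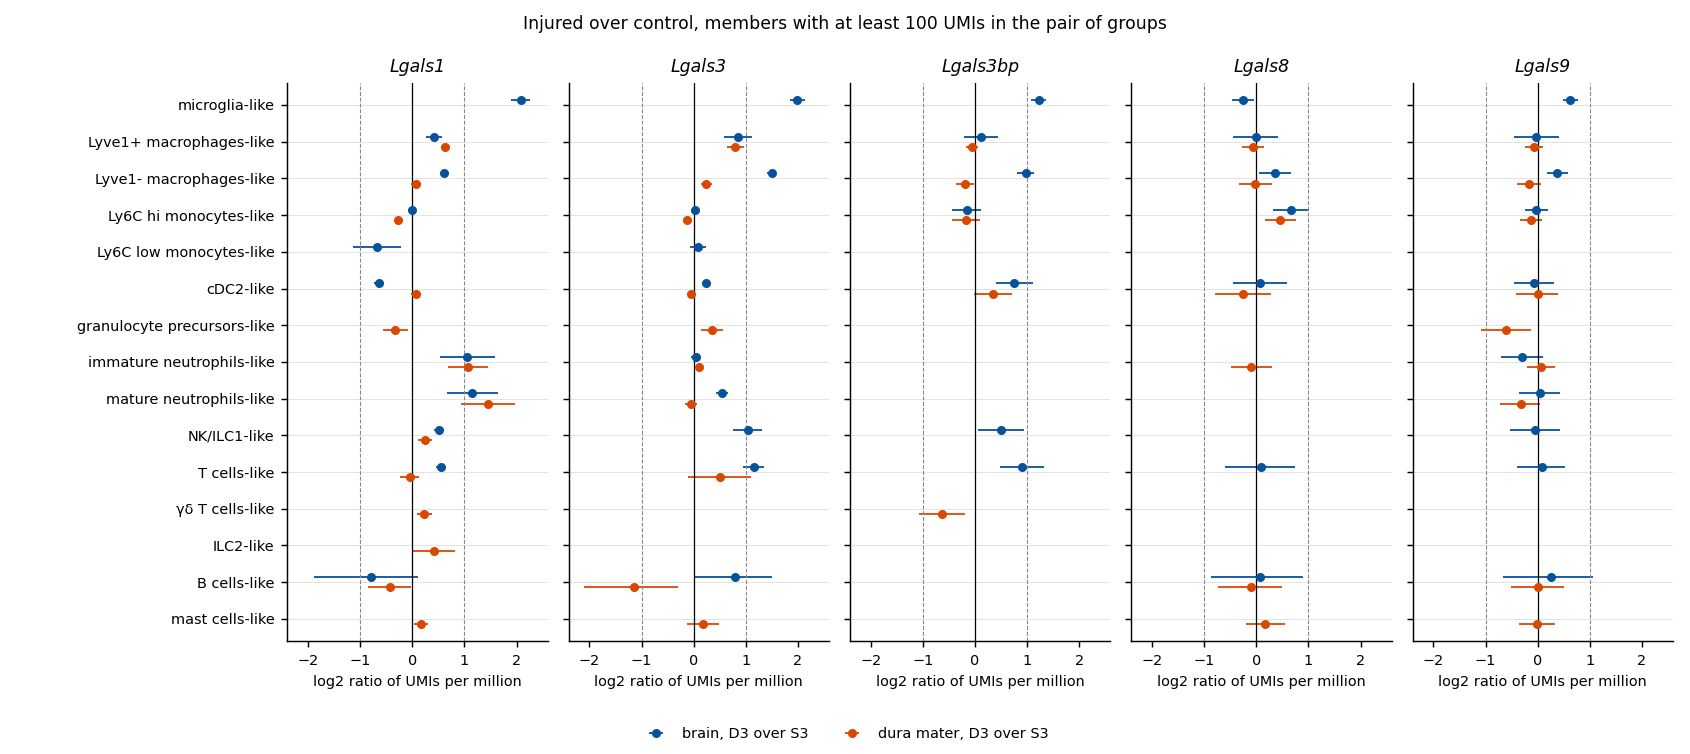
Log2 ratio of CPM in D3 over S3 (horizontal axis) for each member and immune class, brain and dura mater apart, where the pair of groups had at least 100 UMIs; bars are 95% intervals for counting error and dashed lines mark 2-fold. Microglia-like cells had the highest brain ratios of Lgals1 (2.08), Lgals3 (1.99) and Lgals3bp (1.22), and mature neutrophil-like cells the highest dura mater ratio of Lgals1 (1.44), which few cells carried.

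The design also allows the tissues to be set side by side without injury. Between S3 dura mater and S3 brain, Lyve1+ macrophage-like cells had more Lgals3bp in the dura mater, at 232.6 against 122.8 CPM (log2 ratio 0.92, 0.66 to 1.19), and more Lgals9, at 109.4 against 74.4 (0.56, 0.22 to 0.91). Their Lgals1 was not told apart (0.13, -0.01 to 0.27). No member was at least 2-fold higher in the dura mater, where 3.87% of genes were. In the same cells all 11 interferon-stimulated genes with enough UMIs were above 0 in the dura mater (median 1.35), where 20.3% of 6104 genes were. The Lgals3 ratio of -0.54 had no stable direction: it was 0.50 when each cell had the same weight and 2.54 with clusters in place of gates. T-like cells had less Lgals3 in the dura mater, at 58.0 against 141.5 CPM (-1.29, -1.71 to -0.89), where 1.12% of genes were at least 2-fold lower, and NK/ILC1-like cells had 52.5 against 114.9 (-1.13). In S3 brain 20 T-like cells of cluster 12 had 755.0 CPM of Lgals3, and within cluster 13 the T-like levels were 88.1 CPM in the dura mater and 135.7 in the brain. Over the classes, the interval lay above 0 in 3 of 11 for Lgals1 and below in 3, and for Lgals3 above in 2 of 9 and below in 4, against 21.4% and 10.6% of all pairs.

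The genes whose levels most resembled each member over the 52 groups, among 6670 genes, are given as a description, since the groups share libraries and depth. For Lgals1 these were Ahnak (Pearson r 0.82, Spearman 0.80), a giant scaffold protein, Anapc11, Capn2, Runx3, a transcription factor of cytotoxic lymphocytes, and Cuta. Lgals3 was most like Gpr141 (0.89, 0.88), an orphan receptor, Ifitm3, an interferon-induced membrane protein, Arpc1b, Emilin2 and Alox5ap, which serves leukotriene synthesis. Lgals3bp was most like Slc9a9 (0.86, 0.88), an endosomal proton exchanger, Lpar6, Tmem176a, Tmem176b and Stard3nl. Lgals8 was most like Vps39 (0.86, 0.78), part of the machinery of lysosomal fusion, Tpp1, a lysosomal protease, Mpv17, Ndst2 and Tubb2a. For Lgals9 the likeness was weaker, with Itga9 first (0.71, 0.68). Each member was also set against the mean of log2(CPM + 1) over the 12 interferon-stimulated genes. Pearson r was 0.62 for Lgals3, 0.57 for Lgals3bp, 0.34 for Lgals1, 0.26 for Lgals9 and 0.18 for Lgals8 (Spearman 0.63, 0.53, 0.25, 0.42 and 0.24). Among the members themselves, Lgals1 with Lgals3bp (0.60, 0.51) and Lgals8 with Lgals9 (0.55, 0.55) were the most alike.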

How the data were processed

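CD45+ cells sorted from brain or dura mater were measured by droplet RNA-seq (10x Chromium 3' v3) in 4 libraries, 1 per condition. The authors aligned reads to mm10 with Cell Ranger 3.1.0 and normalized with Seurat 3.1.0. As deposited, each value is a natural log, taken by the authors of UMIs per 10000 of a cell plus 1. UMIs were recovered by undoing the log and dividing by the smallest step in each cell, taken as 1 UMI; 100% of values came out whole within 1e-06. A gene not listed in a library was counted as 0.

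Cells were kept if they had more than 1000 and fewer than 6000 genes and if mitochondrial genes held no more than 7% of their UMIs, which left 14586 of 18969. Each cell was scored for lists of markers, as a mean over the markers of the natural log of UMIs per 10000 plus 1. Each log value was first divided by the marker's percentile 99.5, taken as at least 1, and capped at 1. A cell entered a class at a score of 0.25 to 0.6, set per class, with a UMI of at least 50% of the markers; 996 cells lay within 0.05 of a threshold. Cells that passed gates of different lineages (888) were left out as possible doublets; no doublet caller was run, and 848 cells passed no gate. Clusters, used as an alternative and to split classes, came from Seurat 5.3.0 (2500 variable genes without the members, 30 components, 20 neighbours, resolution 0.6) and numbered 30.

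UMIs were pooled per class and library. Levels have exact Poisson intervals at 95%, shares of cells exact binomial (Clopper-Pearson) ones and log2 ratios exact conditional ones, all for counting error only. Comparisons need at least 50 cells a class and count genes with at least 100 UMIs; levels are shown from 20 cells. A share of cells is also given after thinning to 2000 UMIs. Named genes are the 5 members, their lists and, for each member, the 5 genes with the highest Pearson correlation of log levels. The members and lists were chosen with earlier results of these data known. Alternatives were no cell filter, thinning, the mean over cells, clusters, 1 more marker and centring on the median gene, with 2 added later. The scripts were tested on simulated data and used Python 3.11.15, numpy 2.4.6, scipy 1.17.1, pandas 2.3.3 and matplotlib 3.10.9. Gene positions are from GENCODE vM21 and promoter windows from RefSeq on GRCm38.p6.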

Additional observations from a re-analysis of the deposited data

Results flagged for a closer look

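In 2 classes the injury ratio of a member lay on opposite sides of 0 in brain and dura mater, with neither interval reaching 0. The difference between the tissues was itself not tested, since each condition has 1 library. In Lyve1- macrophage-like cells, Lgals3bp had a log2 ratio of D3 over S3 of 0.97 (0.81 to 1.13) in the brain and -0.19 (-0.36 to -0.02) in the dura mater. Among those cells that lay in cluster 5, Lgals3bp was at 122.4 CPM in S3 and 119.5 in D3 brain, and at 173.2 and 161.8 in the dura mater, so within that cluster neither tissue differed beyond counting error.

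In B-like cells, Lgals3 had a log2 ratio of 0.8 (0.03 to 1.5) in the brain and -1.14 (-2.10 to -0.30) in the dura mater. These values rest on 109 and 20 UMIs in S3 and D3 brain and on 97 and 13 in S3 and D3 dura mater. The summed level of the Arg1 Gpnmb macrophage markers in the same cells was 43.6 CPM in S3 and 295.5 in D3 brain, and 77.6 and 45.6 in the dura mater. Their part in the result was not tested.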

How the results depend on the processing

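The 25 log2 ratios of the 5 members in 5 comparisons were recomputed under 6 alternatives and 2 more chosen after seeing the data. Of these values 134 stayed within the counting interval, 42 moved outside it and 4 changed sign; with 1 more marker in the gate all 25 stayed. The cause of the moves was not tested. With no filter on cells, Lgals3 in microglia-like cells was 1.82. In Lyve1+ macrophage-like cells Lgals1 and Lgals3 were 0.6 and 0.36 in the brain, 0.95 and 1.07 in the dura mater, and 0.31 and -0.89 between S3 dura mater and brain. Arg1 Gpnmb macrophage-like cells against border macrophages gave 1.89 and 2.99. With cells thinned to 2000 UMIs, and alike with the mean over cells, microglia-like cells gave 2.21 for Lgals3, 0.97 for Lgals3bp and 0.37 for Lgals9. Lyve1+ cells of the brain gave 0.18 for Lgals1 and 1.27 for Lgals3, those of the dura mater 0.49 and 0.4, and Arg1 Gpnmb cells 3.61 for Lgals3. Lgals3bp in dural Lyve1+ cells was 0.07 thinned and 0.08 as a mean over cells. The S3 difference of Lgals3 in Lyve1+ cells between dura mater and brain changed sign, to 0.51 and 0.5. With clusters in place of gates, Lgals3 was 2.41 in microglia-like cells, 2.85 and 0.45 in Lyve1+ cells of brain and dura mater, and again of opposite sign, 2.54, between the S3 tissues. Arg1 Gpnmb cells gave 2.11 for Lgals1, 3.41 for Lgals3 and 1.02 for Lgals3bp, and centring on the median of all genes gave 2.14 and 3.35 for the first pair. Requiring gate and cluster of the same name, chosen after seeing the data, gave 1.8, 3.39, 0.29 and, with opposite sign, 2.89 for Lgals3 in the same order of classes, and 2.19 and 3.57 for Lgals1 and Lgals3 in Arg1 Gpnmb cells. Microglia-like cells with no UMI of Arg1 or Gpnmb, also chosen afterwards, gave 1.12 for Lgals1 and 0.85 for Lgals3.

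The intervals cover counting error only, and PCR copies were already collapsed into UMIs. No paired analysis was possible because the labels give no replicate numbers and each condition has 1 library. The depth limits the genes of low level most: groups with under 100 UMIs of a member were left out of the counts.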

Other observations

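Cells with proliferation transcripts, defined as UMIs of at least 3 of 8 proliferation genes, had galectin levels of their own. Among the microglia-like cells of D3 brain, 70 such cells had more Lgals1 (319.9 CPM against 216.7 in the other 509), Lgals3bp (315.9 against 213.1) and Lgals9 (232.4 against 144.3), but less Lgals3 (257.7 against 385.1). In S3 dura mater, 66 of the Ly6C hi monocyte-like cells had 1628 CPM of Lgals1 against 635.4 in the other 232, and 11.7 of Lgals3bp against 69.2. B cell precursor-like cells with these transcripts (104 cells) had 347.4 CPM of Lgals1 against 171.3 in the other 195, and 407.0 of Lgals9 against 223.5. These genes were not higher in every class. Lgals9 was at 49.8 CPM against 85.9 in the Ly6C hi monocyte-like cells. In immature neutrophil-like cells Lgals9 was at 34.1 against 50.5 and Lgals1 at 9.21 against 19.6. Lgals3 was lower in those cells too, with 437.6 CPM in 76 cells against 1108 in 342. Cells with proliferation transcripts also held more UMIs, with medians of 30378 against 8804 in the microglia-like cells, and the part of this depth was not tested.

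The other galectins were nearly absent from these immune cells. Over all kept cells of the 4 libraries, 524 UMIs of Lgals4, a galectin of the gut, were found, 423 of Lgalsl, 118 of Lgals7, 35 of Grifin and 34 of Lgals2. Lgals6 and Lgals12 were not listed and count as 0.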
